A study of Mus musculus with 55 samples.

Results

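The SOCS feedback inhibitors comprise 8 genes, Socs1 to Socs7 and Cish, and the chromatin around them was measured in mouse macrophages treated with lipopolysaccharide (LPS, the bacterial ligand of the receptor TLR4), with the human milk sugar 3'-sialyllactose (3'SL), or with both. Members were chosen by name. Their regions were all merged sites of open chromatin that the authors' annotation assigned to a member as the gene with the nearest start site, no farther than 100 kb from that start. This gave 66 of 97113 regions, for 7 of the 8 genes: 12 for Socs1, 2 for Socs2, 16 for Socs3, 5 for Socs5, 19 for Socs6, 4 for Socs7 and 8 for Cish. Socs4 had no assigned region and has no value here. All 66 regions had enough H3K27ac tags to be tested and 60 had enough p300 tags.

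SOCS proteins are made in response to cytokines that act through JAK kinases and STAT factors, and they shut the same pathway down. SOCS1 and SOCS3 block JAK kinase activity through a kinase inhibitory region, and CISH competes for docking sites on activated receptors. All members carry a SOCS box that recruits an Elongin and Cullin-5 ubiquitin ligase. In macrophages SOCS3 is known for limiting signalling downstream of the IL-6 receptor subunit gp130 and SOCS1 for limiting interferon signalling. Cish is a classical target of STAT5. SOCS2 is best known as a regulator of growth hormone signalling, and SOCS4 to SOCS7 are less studied in macrophages.

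The cells were bone marrow-derived macrophages of C57BL/6 mice, grown in L-cell conditioned medium, replated with M-CSF and starved of serum overnight before treatment. Treatments lasted 2 h or 6 h and were PBS (the vehicle), LPS at 10 ng/ml, 3'SL at 100 µg/ml, or both agents together. Chromatin immunoprecipitation sequencing (ChIP-seq) was run for acetylated lysine 27 of histone H3 (H3K27ac, a mark of active promoters and enhancers; formaldehyde fixation) and for p300 (an acetyltransferase that places this mark; DSG and formaldehyde fixation). Values could be matched to 15 H3K27ac and 14 p300 libraries in timed groups. These were 2 per group, except vehicle at 6 h for H3K27ac and vehicle at both times for p300. Those groups had 1 library each, of replicate 2. A replicate 1 sample is listed for each of them, but no column of values was matched to it. Some labels conflict: in H3K27ac replicate 1, every treated library titled 2 h (all but PBS) is labelled as treated for 1 h, and the replicate 2 library of both agents at 2 h is labelled as vehicle. Titles were followed. Nothing in the labels says whether replicates came from separate animals or cultures, so p-values measure only the spread between these samples. In such bulk samples a stronger signal per cell and a larger share of cells with the signal cannot be told apart.

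Replicate 1 and replicate 2 differed in depth and in background. H3K27ac libraries held 11385758 to 16842791 tags in replicate 1 and 4200716 to 39597624 in replicate 2, and p300 libraries 13557960 to 18130439 and 3199270 to 8754552. The share of tags inside the measured windows was 6.12% to 9.42% in p300 replicate 1, 20.1% to 27.5% in p300 replicate 2 and 4.77% in the p300 input. Values were therefore rescaled to the tags in windows, and are given as normalised tags per 10000000. Of the 9 macrophage markers listed, 8 had assigned regions, at 846 to 3075 summed H3K27ac tags in PBS at 2 h, against 2.81 to 9.24 for 3 fibroblast genes 2.35 to 18.3 for 3 neutrophil genes, 12.1 to 114 for 3 T cell genes and 24.1 to 233 for 2 dendritic cell genes. B cell Ms4a1, the only one of 3 listed B cell genes with regions, had 1200, and no marker of any list passed the test under LPS.

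Sequences are shown for the start sites of the 3 members whose H3K27ac rose under LPS, for the Socs3 and Cish regions of highest mean p300, and for the Socs3 region of lowest p300 p after 2 h of LPS. They were read from the RefSeq promoter table and genome of build GRCm38.p6 (mm10), which held promoters of 4 of the 8 members (Cish, Socs1, Socs3 and Socs4). Promoters run 5′ to 3′ on the gene's own strand from 250 bases before the start to 30 after it, and distal windows on the plus strand. Capitals mark matches, on either strand, to motifs searched by letters: TTCNNNGAA (STAT), GGG and TTCC with any 3 bases between them (NF-kB), GAAA and GAAA with any 2 bases between them (the interferon-stimulated response element, ISRE), TGANTCA (AP-1), GAGGAAGT (PU.1) and TTGCNNAA (C/EBP). A match describes letters and is no proof of binding. The lack of a match is no proof that a site is absent, since near variants were not searched.
Socs3 promoter, chr11:117969337-117969616, minus strand: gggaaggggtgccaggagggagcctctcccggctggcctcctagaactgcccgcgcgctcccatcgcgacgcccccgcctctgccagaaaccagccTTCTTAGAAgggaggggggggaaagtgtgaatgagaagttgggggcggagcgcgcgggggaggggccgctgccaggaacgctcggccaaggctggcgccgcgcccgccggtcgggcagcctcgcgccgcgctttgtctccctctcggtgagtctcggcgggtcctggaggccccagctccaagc
Socs1 promoter, chr16:10785507-10785786, minus strand: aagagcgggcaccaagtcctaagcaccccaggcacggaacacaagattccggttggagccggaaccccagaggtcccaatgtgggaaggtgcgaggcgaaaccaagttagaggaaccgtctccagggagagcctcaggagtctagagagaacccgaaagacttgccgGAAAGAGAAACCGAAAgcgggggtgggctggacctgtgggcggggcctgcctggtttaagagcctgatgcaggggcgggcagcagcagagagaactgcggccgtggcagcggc
Cish promoter, chr9:107296409-107296688, plus strand: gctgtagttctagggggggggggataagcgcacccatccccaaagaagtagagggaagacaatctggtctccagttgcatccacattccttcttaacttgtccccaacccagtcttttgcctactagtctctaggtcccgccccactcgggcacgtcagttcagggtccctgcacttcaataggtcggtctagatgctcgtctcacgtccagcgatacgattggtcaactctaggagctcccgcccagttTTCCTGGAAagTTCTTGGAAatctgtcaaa
Socs3 region 8627 bp upstream of the start, chr11:117977893-117978093: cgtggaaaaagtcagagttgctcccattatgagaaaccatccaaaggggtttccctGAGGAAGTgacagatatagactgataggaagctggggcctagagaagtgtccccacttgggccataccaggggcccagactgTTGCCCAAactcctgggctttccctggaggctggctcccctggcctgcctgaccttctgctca
Socs3 region 22667 bp downstream of the start, chr11:117946599-117946799: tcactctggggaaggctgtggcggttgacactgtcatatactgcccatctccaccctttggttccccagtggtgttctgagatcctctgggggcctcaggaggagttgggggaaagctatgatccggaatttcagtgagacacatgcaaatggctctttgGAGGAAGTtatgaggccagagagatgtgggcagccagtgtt
Cish region 16283 bp downstream of the start, chr9:107312842-107313042: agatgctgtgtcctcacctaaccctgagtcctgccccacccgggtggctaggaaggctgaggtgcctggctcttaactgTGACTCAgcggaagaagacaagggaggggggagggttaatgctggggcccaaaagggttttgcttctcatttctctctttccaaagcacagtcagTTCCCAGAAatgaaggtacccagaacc

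The Socs3 promoter held 1 STAT match, TTCTTAGAA at bases 97 to 105 of the printed run, and the Cish promoter held 2, TTCCTGGAA at bases 251 to 259 and TTCTTGGAA at 262 to 270. STAT matches occurred in 8.3% of 32851 promoters of 300 bases. The Socs1 promoter held 2 overlapping ISRE matches, GAAAGAGAAA at bases 168 to 177 and GAAACCGAAA at 174 to 183; ISRE matches occurred in 3.44% of promoters. The upstream Socs3 region held a PU.1 and a C/EBP match, the downstream Socs3 region a PU.1 match, and the Cish region an AP-1 match and a STAT match, TTCCCAGAA. Over all 66 member windows of about 200 bases, STAT letters were in 8 (12.1%, against 5.73% of all 97113 windows), AP-1 in 15 (22.7% against 17.2%), PU.1 in 8 (12.1% against 9.69%), C/EBP in 7 (10.6% against 10.3%), NF-kB in 3 (4.55% against 4.93%) and ISRE in 3 (4.55% against 3.27%). These shares count only the letters searched and were not tested. The upstream Socs3 region, for example, holds ggggtttccc, which is close to the NF-kB letters but was not counted.

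H3K27ac of Socs3, Cish and Socs1 rose after 2 h of LPS, and that of the other 4 measured members did not pass the test. Summed over its 16 regions, Socs3 had 439 and 500 tags in the PBS libraries of replicates 1 and 2, and 3252 and 2591 in the LPS libraries. That is 2921 ± 467 (SD, n = 2) against 470 ± 42.9 (SD, n = 2), a log2 change of 2.63 ± 0.28 (SE; limma adjusted p = 0.0015, edgeR adjusted p = 0.00237). Both LPS libraries lay above every library without LPS, and the change was 2.89 within replicate 1 and 2.37 within replicate 2.

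Cish, summed over 8 regions, had 276 and 386 tags in PBS and 2019 and 1040 after 2 h of LPS. The log2 change was 2.15 ± 0.40 (SE; limma adjusted p = 0.0133, edgeR adjusted p = 0.0156), with 2.87 within replicate 1 and 1.43 within replicate 2. The 2 replicates' changes differed widely in size, although the groups did not overlap. Socs1 had 506 and 266 tags in PBS and 1666 and 1015 after LPS. The log2 change was 1.82 ± 0.34 (SE; limma adjusted p = 0.0137, edgeR adjusted p = 0.0182). Its changes within replicates were 1.72 and 1.93. Across all 16703 genes tested, 3.5% were called higher in this comparison (3.35% by edgeR), against 3 of 7 members. The LPS library of replicate 1, which carries the 1 h label, matters here. Without it Socs3 was still called (2.43, adjusted p = 0.0246). Cish (1.64, adjusted p = 0.115) and Socs1 (1.43, adjusted p = 0.133) lost their calls. Both also lost their calls without PBS replicate 2 (Cish adjusted p = 0.0656, Socs1 adjusted p = 0.111), and Cish without PBS replicate 1 (adjusted p = 0.0828).

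**Figure D1:**
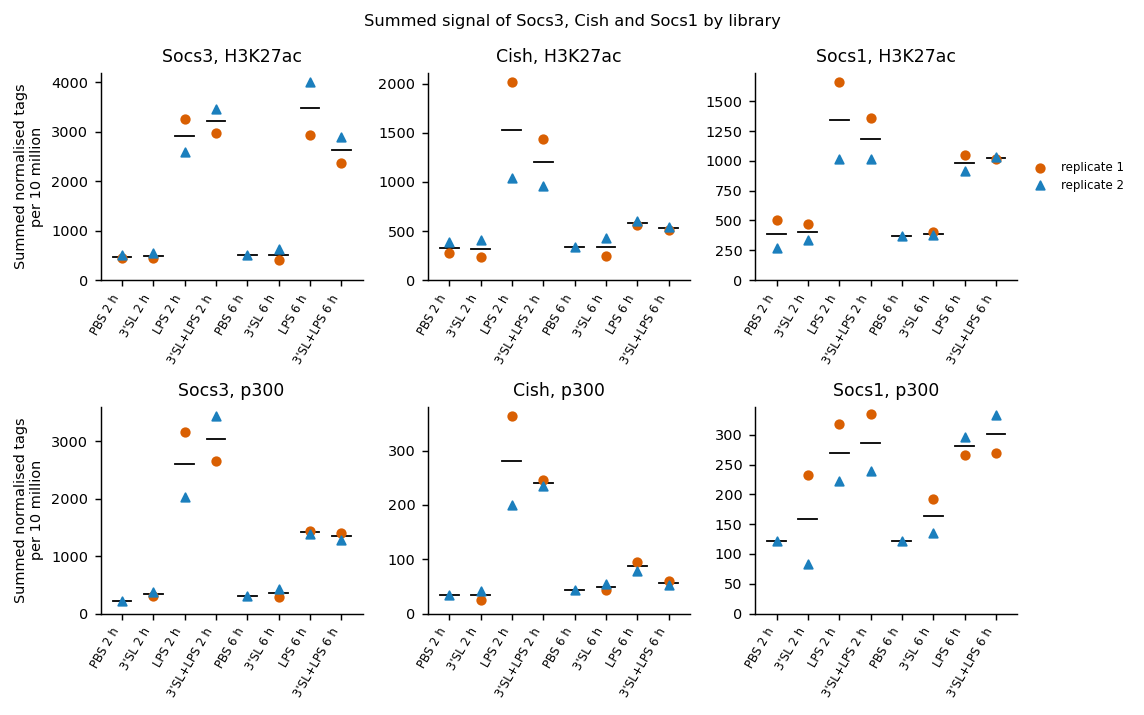
Normalised tags summed over the regions of Socs3, Cish and Socs1 (y axis, linear, per 10000000) in each library, by treatment and time (x axis), for H3K27ac (top) and p300 (bottom); circles are replicate 1, triangles replicate 2, and bars group means. Socs3 H3K27ac lay at 2362 or above in all 8 libraries with LPS and at 627 or below in all others, while Cish H3K27ac was 565 and 603 after 6 h of LPS against 2019 and 1040 after 2 h.

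p300 at Socs3 and Cish was also higher after 2 h of LPS, measured against a single vehicle library. Socs3 had 216 tags in PBS and 3166 and 2035 after LPS. The log2 change was 3.55 ± 0.42 (SE; limma adjusted p = 0.00148, edgeR adjusted p = 0.0131; 3.23 within replicate 2). Cish had 34.2 tags in PBS and 364 and 199 after LPS. The log2 change was 2.94 ± 0.48 (SE; limma adjusted p = 0.0109, edgeR adjusted p = 0.0471; 2.51 within replicate 2). Socs1 had 121 tags in PBS and 318 and 223 after LPS, which did not pass the test (1.14 ± 0.54, SE; limma adjusted p = 0.388, edgeR adjusted p = 0.473). limma called 1.44% of 15764 genes higher here and edgeR 0.228%. Tags were simulated with the same spread for every feature and no difference between replicate numbers. On them limma made false calls beyond its threshold among low p300 features compared with this shallow vehicle library, while edgeR did not. Each p300 call is therefore given by both. On the deposited scale neither gene was called (adjusted p = 0.999 for both), and Cish lost its call without LPS replicate 1 (adjusted p = 0.0837). The deposited scale shifted the median change of all p300 genes from 0.11 to −0.73.

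At 6 h Socs3 was the only member called. Socs3 H3K27ac was 2937 and 4002 tags after LPS against 509 in the lone PBS library. The log2 change was 2.75 ± 0.34 (SE; limma adjusted p = 0.0102, edgeR adjusted p = 0.0281; 2.97 within replicate 2). limma called 0.401% of all genes higher here and edgeR 0.233%. The call ended without LPS replicate 2 (2.49, adjusted p = 0.0925) and on the deposited scale (2.61, adjusted p = 0.0694). Socs1 was 1053 and 916 against 369 (1.41, limma adjusted p = 0.188, edgeR adjusted p = 0.238). Cish was 565 and 603 against 335 (0.80, limma adjusted p = 0.579). Neither passed. For p300, Socs3 was 1432 and 1391 against 308 (2.19, limma adjusted p = 0.0615, edgeR adjusted p = 0.159). Cish was 95 and 79 against 43.6, and Socs1 266 and 297 against 122, none of them called (limma called 0.121% of all genes higher, edgeR 0.00634%). DESeq2 did call Socs3 p300 (2.24, adjusted p = 0.000632), where it called 133 of 7818 genes higher.

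Between 2 h and 6 h of LPS no member passed the test in either mark, and neither did any of the genes or regions tested with limma or edgeR. Unadjusted limma p was under 0.05 for 1180 H3K27ac and 671 p300 genes, and DESeq2 called 112 H3K27ac genes higher and 21 lower, no member among them. The values of Cish went down: H3K27ac from 2019 and 1040 to 565 and 603 (log2 change −1.31 ± 0.40, SE; adjusted p = 0.572) and p300 from 364 and 199 to 95 and 79 (−1.63 ± 0.39, SE; adjusted p = 1), with the 2 h and 6 h libraries not overlapping in either mark. The share of all genes whose libraries of the 2 times were likewise apart was not counted. All 8 Cish regions had a lower mean log2 value at 6 h in both marks, with medians of −1.78 for H3K27ac and −2.09 for p300. Medians over all regions tested were −0.01 and −0.05. The H3K27ac windows of 6 of the 8 Cish regions overlap a neighbour, so the regions are not separate measurements. For Socs3 the H3K27ac libraries overlapped (2591 to 3252 against 2937 to 4002), 12 of 16 regions were above 0 and the median was 0.27. Its p300 went from 3166 and 2035 to 1432 and 1391, with 1 of 16 regions above 0 and a median of −0.85. The LPS effect at 6 h minus that at 2 h, tested as a difference and added after the data were seen, was −1.97 ± 0.68 (SE) for Cish p300, −1.36 ± 0.59 for Socs3 p300 and −1.35 ± 0.63 for Cish H3K27ac, with adjusted p = 1 for each.

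Among single regions, limma called 22 of 66 higher in H3K27ac after 2 h of LPS and none lower, against 3.08% of 77387 regions called higher by limma and 2.68% by edgeR. They were 14 of 16 at Socs3, 5 of 8 at Cish and 3 of 12 at Socs1, and edgeR called 21 of them. Without PBS replicate 2, 5 of the 22 were still called, and without LPS replicate 1, 6. DESeq2 called 3 Socs6 regions lower, where it called 3490 of 59382 regions lower in the whole table. A pseudocount of 5 called 1 Socs6 region lower. The median change was 2.69 at Socs3, 3.20 at Cish, 0.60 at Socs1, −0.74 at Socs6, 0.16 at Socs5 and 0.08 at Socs7. H3K27ac windows of 1000 bp overlap between near regions, so neighbouring calls and the sums count some tags more than once.

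The Socs3 region 8627 bp upstream, between genes, went from nearly no signal to one of the strongest p300 regions of the gene. Its p300 was 0 in PBS at 2 h, 4.83 and 0 under 3'SL, 814 and 412 under LPS and 565 and 701 under both. The LPS value is at least 115-fold higher than a floor of 3 tags over the vehicle group (limma adjusted p = 0.00012, edgeR adjusted p = 0.049). H3K27ac there was 5.51 and 3.07 in PBS and 206 and 97 after 2 h of LPS (4.79 ± 0.68, SE; limma adjusted p = 0.00458, edgeR adjusted p = 0.00467). It was 253 and 313 after 6 h against 2.66, a ratio of 103 with a counting interval of 35.1 to 501 (limma adjusted p = 0.0126, edgeR adjusted p = 0.041). p300 at 6 h was 325 and 295 against 4.54 in PBS (limma adjusted p = 0.00715, edgeR adjusted p = 0.092). The region lay under a peak of LXR and of p300 in macrophages treated with the LXR agonist GW3965, and under none of SREBP.

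The region 6928 bp upstream of Socs3 (chr11:117976194-117976394) had higher p300 after 2 h of LPS than after 6 h. Its p300 was 1.8 in PBS and 205 and 183 after 2 h of LPS (6.12 ± 0.81, SE; limma adjusted p = 0.00089, edgeR adjusted p = 0.049), and 24.7 and 43.8 after 6 h against 20.0 in PBS (0.69, limma adjusted p = 0.847). Its H3K27ac, in contrast, was 4.59 and 5.11 in PBS, 158 and 84.7 after 2 h and 119 and 248 after 6 h. The H3K27ac libraries of both times overlapped while the p300 libraries did not. The difference of the p300 LPS effects, 6 h minus 2 h, was −5.43 ± 1.15 (SE; unadjusted p = 0.0002, adjusted p = 1). That difference uses 1 vehicle library per time. The PBS value of 1.8 at 2 h is 1 tag at that library's scaling factor of 1.80, against 20.0 at 6 h. A higher vehicle value at 6 h is thus part of the difference. Unadjusted p was under 0.05 for 2552 of 62225 regions in this test. The lower p300 after 6 h than after 2 h of LPS was not particular to this region, as only 1 of 16 Socs3 regions had a p300 change above 0 between the times. At 27727 bp downstream p300 was 67.2 and 55.1 after 2 h against 3.6 in PBS. It was 20.9 and 18.1 after 6 h against 19.1 in PBS. H3K27ac there was 124 and 112 after 2 h and 107 and 111 after 6 h.

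The region 22667 bp downstream had the highest mean of both marks among the Socs3 regions. H3K27ac was 56.1 and 64.4 in PBS, 587 and 423 after 2 h and 438 and 547 after 6 h of LPS. The change at 2 h was 3.03 ± 0.29 (SE; limma adjusted p = 0.00129, edgeR adjusted p = 0.00203). p300 was 34.2 in PBS and 645 and 406 at 2 h (3.87 ± 0.55, SE; limma adjusted p = 0.00149, edgeR adjusted p = 0.049). At the Socs3 start itself (4 bp upstream, promoter) H3K27ac was 34.9 and 18.4 in PBS and 255 and 162 after LPS (2.95 ± 0.48, SE; limma adjusted p = 0.00751). p300 there was 14.4 against 133 and 89.0 (2.84 ± 0.64, SE; limma adjusted p = 0.0274, edgeR adjusted p = 0.135). In p300 as a whole 11 of 60 tested member regions were called by limma at 2 h, 10 at Socs3 and 1 at Cish, where 2.05% of 62225 regions were called higher. edgeR called 3, the Socs3 regions 8627 and 6928 bp upstream and 22667 bp downstream, where it called 0.112% of regions higher. At 6 h, 9 Socs3 regions were called for H3K27ac (edgeR 5; 0.545% and 0.093% of all regions) and 3 for p300 (edgeR 0; 0.387% of all regions by limma), and limma called none of any other member. For H3K27ac at 6 h no region was called once either LPS library was left out.

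**Figure D2:**
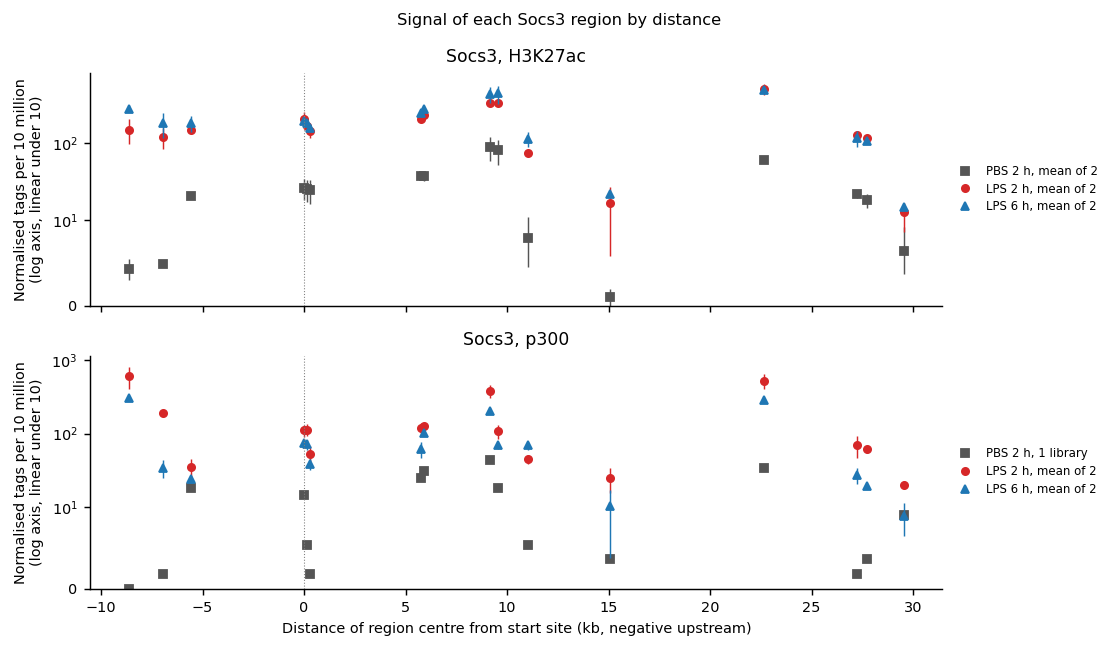
Normalised tags (y axis, per 10000000, logarithmic above 10 and linear below) of each Socs3 region against its distance from the start site (x axis, kb, negative upstream) for H3K27ac (top) and p300 (bottom); points are group means, vertical lines join the lowest and highest library, and PBS p300 is 1 library. At 8.6 kb upstream PBS p300 is 0 while the LPS libraries reach 412 and 814 at 2 h.

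Cish H3K27ac was called at its 4 promoter-proximal regions and at 1 distal region. The region 953 bp upstream (chr9:107295606-107295806) had 6.43 and 4.09 tags in PBS, 176 and 97.7 after 2 h of LPS and 32.7 and 35.2 after 6 h. The change at 2 h was 4.43 ± 0.66 (SE; limma adjusted p = 0.00536, edgeR adjusted p = 0.00963). The region 87 bp upstream, which holds the STAT match at the start site, had 10.1 and 15.3, then 242 and 68.1, then 38.4 and 35.2 (2 h change 3.27 ± 0.66, SE; limma adjusted p = 0.0177). The 2 distal regions 16283 and 16743 bp downstream carried the most H3K27ac of Cish in PBS, 122 and 168 tags at the nearer, and had the smallest H3K27ac changes of the 8. The nearer had 525 and 322 after LPS, which did not pass the test (1.52 ± 0.40, SE; limma adjusted p = 0.0528). p300 at the region 138 bp downstream, in exon 1, whose window holds 2 further STAT matches, TTCTAGGAA and TTCCGGGAA, was 0 in PBS, 41.3 and 28.8 after 2 h of LPS and 3.8 and 4.27 after 6 h. The 2 h difference, at least 6.53-fold over a floor of 3 tags, was called by limma (adjusted p = 0.0398) and not by edgeR (adjusted p = 0.186). p300 at the 953 bp region was 0 in PBS, 48.4 and 16.3 at 2 h and 5.7 and 4.27 at 6 h, none of it called.

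**Figure D3:**
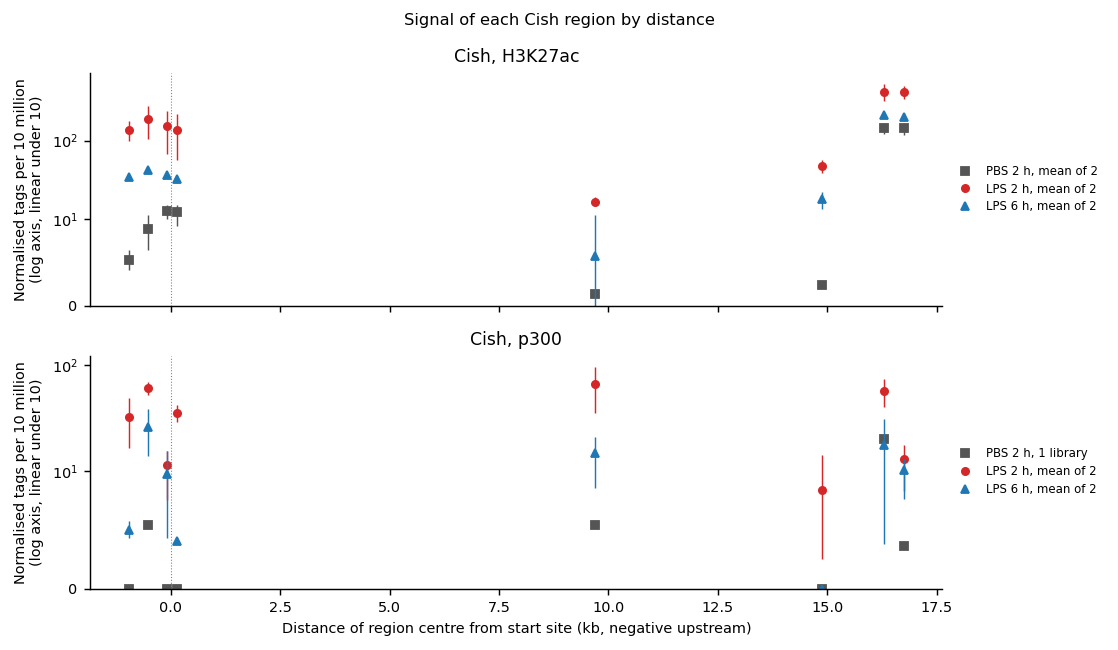
The same display for the 8 Cish regions, with H3K27ac (top) and p300 (bottom) in normalised tags per 10000000 (y axis, logarithmic above 10 and linear below) against distance from the start site in kb (x axis). Points are group means, vertical lines join the lowest and highest library and PBS p300 is 1 library; every mean at 6 h of LPS lies below that at 2 h.

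At Socs1, the called regions were the 3 at the start site. The region 49 bp upstream (chr16:10785485-10785685), which holds both ISRE matches, had 157 and 90.0 H3K27ac tags in PBS, 741 and 518 after 2 h and 354 and 368 after 6 h of LPS (2 h change 2.37 ± 0.32, SE; limma adjusted p = 0.00396, edgeR adjusted p = 0.00629). The region 980 bp upstream had 38.6 and 29.6 in PBS and 412 and 178 after LPS (2.96 ± 0.46, SE; limma adjusted p = 0.00623). Socs1's strongest p300 region was another, 30875 bp downstream (chr16:10754561-10754761), with 57.6 tags in PBS and 114 and 68.9 after LPS and 3 AP-1 matches. Its H3K27ac was 122 and 46.0 in PBS, 57.2 and 35.5 at 2 h and 143 and 107 at 6 h, and none of these differences was called. The 7 Socs1 regions more than 40 kb from the start lie at the end or in introns of other annotated transcripts, and their assignment to Socs1 rests on nearest distance alone.

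The other members gave no called change in their sums with limma over the open regions in the main fit, which had no term for replicate number. A limma fit with that term, given below as the replicate block, called Socs6 H3K27ac lower after 2 h of LPS. Socs6 H3K27ac was 1752 and 989 tags in PBS and 853 and 442 after 2 h of LPS (−1.10 ± 0.71, SE; adjusted p = 0.466; −1.04 and −1.16 within the replicates). Replicate 1 libraries were higher than replicate 2 in every Socs6 group that had both, up to 2318 against 472 under 3'SL at 6 h. The strongest Socs6 region, 38076 bp upstream on chromosome 18 (its sequence is not printed), had 458 and 310 H3K27ac tags in PBS and 69.4 and 83.3 after LPS (−2.29 ± 0.65, SE; limma adjusted p = 0.0685), and p300 of 61.2 against 14.2 and 11.3 (limma adjusted p = 0.255). Socs5, with its highest H3K27ac at its promoter, had 499 and 549 tags in PBS and 459 and 746 after 2 h of LPS. Socs7 had 94.7 and 82.8 in PBS and 97.7 and 125 after LPS, a change that passed the test when the merged H3K27ac regions were used in place of the open regions (1.75, adjusted p = 0.0205). Socs2 had low H3K27ac values, at 22.1 and 8.18 in PBS and 70 and 5.79 after LPS. Neither of its 2 regions had enough p300 tags to be tested singly. Their p300 sum was 0 in PBS and 18.9 and 12.5 after 2 h of LPS, from only 16 and 10 recovered tags. Its log2 change of 4.04 ± 1.34 (SE) was not called (limma adjusted p = 0.17, edgeR adjusted p = 0.383).

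**Figure D4:**
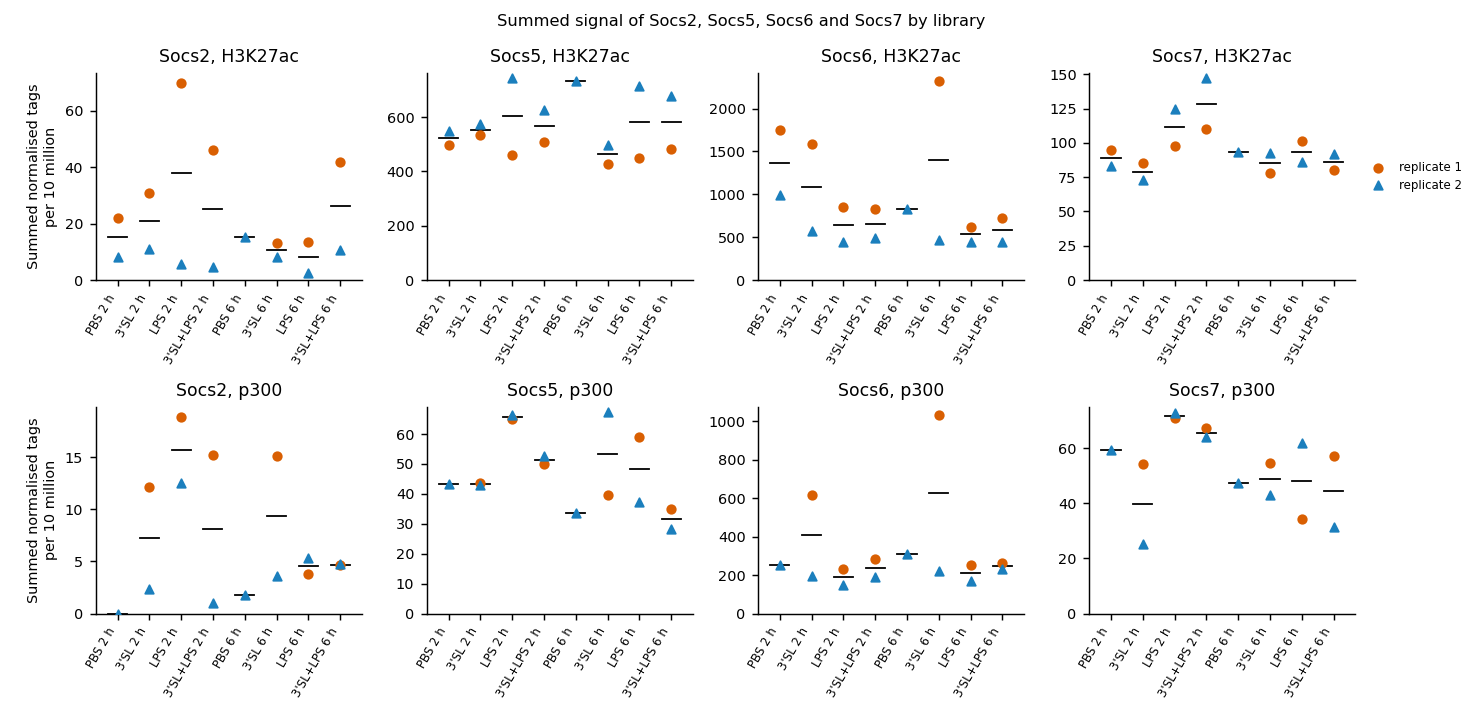
Normalised tags summed over the regions of Socs2, Socs5, Socs6 and Socs7 (y axis, linear, per 10000000) in each library by treatment and time (x axis), for H3K27ac (top) and p300 (bottom); circles are replicate 1, triangles replicate 2, bars group means. Socs6 under 3'SL at 6 h is 2318 in replicate 1 and 472 in replicate 2 for H3K27ac.

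No member passed the test under 3'SL in either mark, alone or with LPS. Alone at 2 h, Socs3 H3K27ac was 447 and 540 against 439 and 500 in PBS (0.07 ± 0.28, SE), Cish 233 and 404 against 276 and 386 (−0.09 ± 0.40, SE) and Socs1 469 and 334 against 506 and 266 (0.11 ± 0.34, SE). Alone at 6 h, Socs3 H3K27ac was 398 and 627 against 509 in PBS (−0.03 ± 0.34, SE), Cish 243 and 424 against 335 and Socs1 402 and 378 against 369. p300 of Socs3 was 302 and 377 at 2 h against 216 in PBS (0.64 ± 0.42, SE) and 291 and 430 at 6 h against 308 (0.20 ± 0.42, SE). The 3'SL libraries of Socs3 lay below every library with LPS in both marks. With LPS at 2 h against LPS alone the changes were 0.15 ± 0.28 (SE) for Socs3, −0.30 ± 0.40 (SE) for Cish and −0.15 ± 0.34 (SE) for Socs1, and at 6 h −0.39 ± 0.28 (SE), −0.15 ± 0.40 (SE) and 0.06 ± 0.34 (SE). In p300 the changes with LPS at 2 h were 0.25 ± 0.34 (SE), −0.16 ± 0.39 (SE) and 0.09 ± 0.44 (SE), and at 6 h −0.07 ± 0.34 (SE), −0.63 ± 0.39 (SE) and 0.09 ± 0.44 (SE), in the same order. Adjusted p was 1 for each by limma and by edgeR. The background was as empty: limma called 0% of all H3K27ac genes and regions in these 4 comparisons, and 0.0381% of p300 genes for 3'SL at 2 h, where edgeR called 0%. Unadjusted limma p was under 0.05 for 67 H3K27ac genes under 3'SL at 2 h, 182 at 6 h, and 28 and 92 under both against LPS. A change that missed the test is not shown to be absent.

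**Figure D5:**
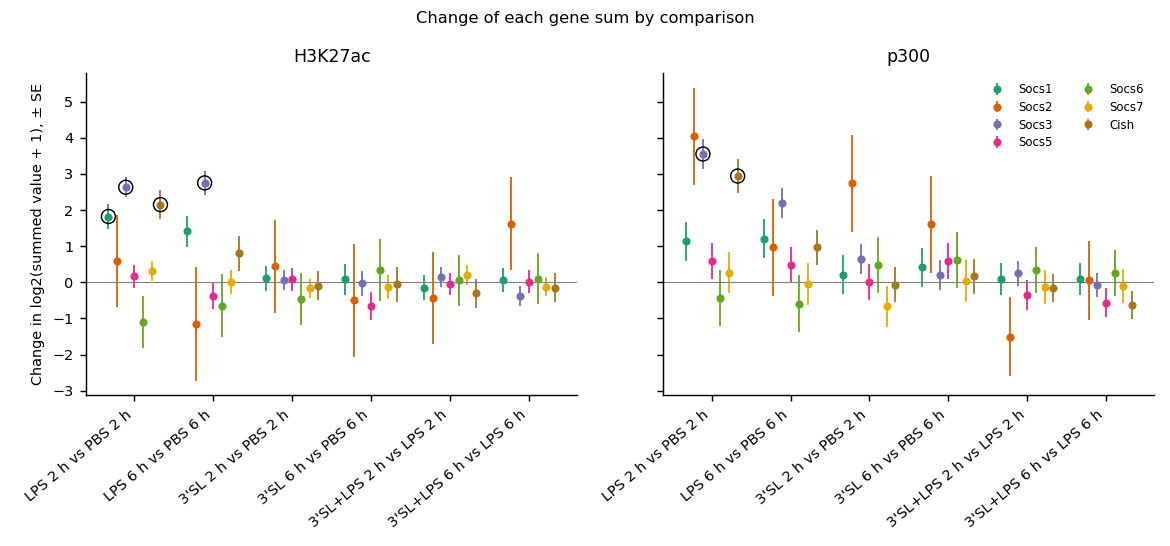
Change in log2(summed value + 1) of each measured member (y axis, points with ± SE bars; colours mark genes) in 6 comparisons (x axis) for H3K27ac (left) and p300 (right); open circles mark limma adjusted p under 0.05. Only LPS comparisons hold circled points: Socs3, Cish and Socs1 for H3K27ac at 2 h, Socs3 at 6 h, and Socs3 and Cish for p300 at 2 h.

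Several other genes of the pathway also gained H3K27ac after 2 h of LPS. Across all 16703 genes tested, limma called 584 (3.5%) higher and 382 lower in this comparison. Of 4 JAK kinases 2 rose, Jak2 (1.77, limma adjusted p = 0.00349) and Tyk2 (2.63, limma adjusted p = 0.0133), and of 7 STAT factors 2, Stat5a (1.43, limma adjusted p = 0.00779) and Stat2 (2.00, limma adjusted p = 0.0131). Of 14 cytokine ligands measured 4 rose, Il27 (2.52, limma adjusted p = 0.0018), Ebi3 (1.95, limma adjusted p = 0.0204), Il23a (1.87, limma adjusted p = 0.0261) and Il6 (2.08, limma adjusted p = 0.0338), whose products signal through JAK and STAT. Among 22 receptors Il13ra1 rose (1.42, limma adjusted p = 0.0457) and Prlr (−1.84, limma adjusted p = 0.0131) and Il12rb1 (−0.99, limma adjusted p = 0.0416) fell. Of 11 other inhibitors of the pathway Ptpn2, a phosphatase of JAK kinases, rose by limma (0.87, adjusted p = 0.0457) and not by edgeR (adjusted p = 0.0526). Of 4 SOCS box partners none passed. Medians of the lists in that order were 1.31, 1.13, 1.66, 0.17, 0.10 and −0.01, against 0.09 for all genes. At 6 h only Il27 was called (2.05, limma adjusted p = 0.0313, edgeR adjusted p = 0.0508). In p300 at 2 h, where limma called 1.44% of all genes higher and edgeR 0.228%, limma called Il27, Il12a, Il10, Lif and Csf3r, of which edgeR called Il27 (adjusted p = 0.0351) and Il12a (adjusted p = 0.0471). No list gene was called under 3'SL.

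Of the 66 member regions, 34.8% lay under LXR peaks, 25.8% under SREBP peaks and 51.5% under p300 peaks of macrophages treated with GW3965 at 1 µM for 18 h, against 23.2%, 22.2% and 33.6% of all regions within 100 kb of a gene. These lists hold 1 set of positions each, and the shares were not tested. The H3K27ac sums most like Socs3 over 15 libraries were those of Traf2 (Pearson r = 0.993), Riok3 (0.989) and Zdhhc6 (0.985). Most like Socs1 were Olfr433 (0.973), Pim1 (0.973) and Olfr432 (0.972). Most like Cish were Zc3h7a (0.972), Trim26 (0.965) and Cpsf2 (0.964). For p300 over 14 libraries, Socs3 was most like Fgd2 (0.988), Gsap (0.984) and Capza2 (0.984), and Cish most like Sh3bgrl (0.960), Tlr2 (0.956) and Slc30a4 (0.952). These are descriptions over libraries that share treatment groups and depth, and carry no test. Inputs, in deposited tags per 10000000, gave 71 to 111 for Socs3 with H3K27ac windows, against 395 and 564 in PBS at 2 h.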

How the data were processed

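H3K27ac and p300 ChIP-seq of bone marrow-derived macrophages was analysed. The submitters' processing notes name Bowtie2, HOMER, DESeq2 and mm10, without versions. The deposited signal was made by the authors with HOMER annotatePeaks.pl, per the file headers: tags in windows of 1000 bp (H3K27ac) or 200 bp (p300), scaled to 10000000 tags per library. The deposited table of open regions also has a score per region, of unstated definition, which was not used. In all, 13 columns could be matched to no sample and were left out. No column was matched to the replicate 1 vehicle samples of H3K27ac at 6 h or of p300 at 2 h and 6 h. The column used for PBS replicate 1 at 2 h carries a digit in its name that might be a running number.

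Whole tags were recovered from the signal (within 0.05 of a whole number for 100% of values). Regions and gene sums (regions within 100 kb of the start) were filtered with filterByExpr, rescaled to tags in regions with TMM, and tested on log2(value + 1) with limma 3.58.1 in R 4.3.3, over all timed groups of a mark, with trended variances and Benjamini-Hochberg adjustment over all features; the threshold was 0.05. Log2 changes understate those of low values. Groups of 1 library are assumed to vary like the others. Replicates differed by more than counting noise (chi-square per degree of freedom 8.34 to 28.3), so none was a duplicate. edgeR 4.0.16 and DESeq2 1.42.0 on recovered tags (DESeq2 with its own size factors), another pseudocount, no filter, the deposited scaling, other region sets, a 20 kb limit, left-out libraries and a replicate block were alternatives. Tags were simulated with the same spread for every feature and no difference between replicate numbers. On them limma held its threshold for H3K27ac, but made false calls beyond it among low p300 features against the lone vehicle library. There edgeR held it for both marks, so its p stands beside p300 calls. Since the real replicates did differ, the simulation cannot show that either tool holds its threshold in these data. Intervals and floors (3 tags) cover counting error only.

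The members and lists were chosen with earlier results of these data known. Named singly were all members, per member the region nearest the start and those with the highest mean signal, at most 12 called regions (lowest p first) with the rest by count, called list genes (at most 4 per list), and the 3 genes most alike per called member. Other results count or compare these.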

Additional observations from a re-analysis of the deposited data

How the results depend on the processing

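Counts of called members changed with the processing in every comparison of LPS with PBS. Of 489 values of member gene sums under alternatives in the LPS comparisons, 31 had the other sign than reported, none of them called on either side. For H3K27ac at 2 h of LPS, 3 member genes became 1 to 3 and 22 regions became 5 to 17 when 1 library was left out (fewest without PBS replicate 2; 6 regions without LPS replicate 1), and 11 regions were called over the merged transcription factor regions. At 6 h, 1 gene became 0 to 1 without a library (0 without LPS replicate 2) and 0 on the deposited scale. The 9 regions became 0 without either LPS library, 18 with DESeq2 and 5 with edgeR. For p300 at 2 h, 2 genes became 1 to 2 without a library (1 without LPS replicate 1), 0 on the deposited scale and 1 over the merged transcription factor regions. The 11 regions became 4 to 7 without a library (3 of the 11 and a lower Socs6 region without LPS replicate 1), 1 on the deposited scale, and 3 with edgeR or over the merged transcription factor regions. At 6 h, p300 calls went from 0 genes to 1, Socs3, with DESeq2 (2.24) and over the merged transcription factor regions (2.48, adjusted p = 0.035), and from 3 regions to 5 with DESeq2, and to 0 with edgeR, on the deposited scale or without either LPS library. Over the merged H3K27ac regions Socs1 at 2 h lost its call (1.24, adjusted p = 0.0912), and over the merged transcription factor regions so did Cish p300 (2.12, adjusted p = 0.095). The deposited scale moved the median p300 change of all genes from −0.06 to −1.04 for LPS at 6 h, where Cish went from 0.97 to −0.04, uncalled in both, and from 0.10 to −0.64 for 3'SL at 2 h. The cause of these changes was not tested. DESeq2 also called more of the whole table at 6 h of LPS. It called 1827 of 53381 H3K27ac regions higher and 1025 lower, against 422 and 102 of 77387 by limma. For p300 it called 525 of 20001 regions higher, against 241 of 62225 by limma, and 133 of 7818 genes higher, against 19 of 15764. A pseudocount of 5, no filter and a 20 kb limit left each count of member genes within 1.5 times.

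The replicate numbers share no stated animal or day, and with 2 numbers the samples share only a number. Replicate differences correlated between groups at 0.45 to 0.67 for H3K27ac and 0.20 to 0.38 for p300. With the replicate block, H3K27ac calls at 6 h of LPS went to 2 genes (Socs1 added, 1.21, adjusted p = 0.0184) and 22 regions (4 lower), p300 regions to 19 at 2 h (3 lower) and 9 at 6 h (1 lower), and p300 genes at 6 h to 1 (Socs3, 2.23, adjusted p = 0.000229). Socs6 H3K27ac at 2 h was then called lower (−1.10, adjusted p = 0.0308), as were 7 of its regions, against 0, so that 33 regions were called in all. Between 6 h and 2 h of LPS, the block called 3 H3K27ac regions, 1 p300 region and 1 p300 gene (Cish, −1.63, adjusted p = 0.0362). No other count of all called members in a comparison moved by over 1.5 times under the block. How many of all features the block called is not given. These counts therefore do not show whether the members differed from the whole table under it.

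The shallowest p300 library, PBS at 2 h, held 3199270 tags.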

Other observations

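A replicate 1 H3K27ac vehicle library whose labels give no time entered no comparison. In deposited tags per 10000000 its sums were 386 for Socs3, 179 for Cish, 266 for Socs1, 15.5 for Socs2, 270 for Socs5, 1460 for Socs6 and 45.2 for Socs7. The PBS libraries at 2 h gave, on the same scale, 395 and 564 for Socs3, 248 and 436 for Cish, 455 and 300 for Socs1 and 1574 and 1115 for Socs6, 448 and 619 for Socs5, and 85 and 93.4 for Socs7. On this scale its Socs3 value lay just below the lower of these, and its Cish, Socs1, Socs5 and Socs7 values lay below both. The deposited scale is not corrected for background. The share of tags in windows was 42.6% in this library, against 54.6% and 79.1% in the PBS libraries at 2 h. The order of the libraries can therefore reflect background and is not read as a difference.

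The deposited list of p65 peaks of a separate series was not used around the members. It holds 41220 peaks, of which 30 lie on contigs with names ending in _random, and 4.37% of its peaks lie within 200 bp of an open region, against 85.7% of LXR, 75.3% of SREBP and 72.5% of p300 peaks.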
